A study of Mus musculus with 20 samples.

Results

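The Fc receptors described here are 6 of the 78409 genes listed in the count table, taken by their symbols: Fcgr1, Fcgr3, Fcgr4, Fcer1g, Fcgr2b and Fcgrt. All 6 had counts in all 20 libraries. Fc receptors bind the constant part of antibodies and let a macrophage sense antigens and particles coated with IgG. The receptors encoded by Fcgr1, Fcgr3 and Fcgr4 activate the cell and depend on the FcRγ chain encoded by Fcer1g, whose cytoplasmic ITAM is phosphorylated by Src family kinases and then recruits Syk. FcγRIIB, encoded by Fcgr2b, is the inhibitory counterpart and carries an ITIM that recruits the phosphatases SHIP1 and SHP-1. Fcgrt encodes the heavy chain of the neonatal Fc receptor, which pairs with β2-microglobulin and returns internalized IgG to the cell surface instead of to the lysosome.

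The libraries came from wild-type C57BL/6J bone marrow-derived macrophages (BMDMs) of female mice, grown with L929-conditioned medium and treated on day 7 of culture in medium without serum. Cells received PBS or airway fluid fractions, with 4 libraries in each of 5 groups. The fractions were separated by size from bronchoalveolar lavage fluid of mice with ovalbumin-induced airway inflammation and held 5 days at 4 °C. EVFx is the fraction enriched in extracellular vesicles, added at 35000000 particles per µL, and ProteinFx is the fraction enriched in protein, added at 0.75 µg per µL. Each came from RNY1+/+ donors or from RNY1-/- donors, in which the gene for the small noncoding Y RNA RNY1 was deleted, so genotype in the group names is that of the fluid donor and never that of the macrophage. The comparisons ask how each fraction moved Fc receptor mRNA away from PBS, whether the fractions differed, and whether RNY1 in the donor mattered. The 2 fractions were matched for neither particles nor protein, and the labels leave unsaid if replicate libraries are different animals, fluid pools or wells, so p-values measure only the spread between these libraries.

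Total counts, which were collapsed on molecular identifiers, ran from 2510005 to 8277366 per library, with replicate 3 the lowest in 4 of the groups. The cells matched their label: all 8 macrophage markers were counted in every group. Their summed level, in CPM (the share of a library's counts scaled to 1000000), was 9475 to 13473 with PBS, 8638 to 10045 with EVFx and 9366 to 11406 with ProteinFx. Against PBS, by the test given below, 5 of the 8 were lower and 2 higher with each EVFx, and 3 and 1 were lower and 4 higher with RNY1+/+ and RNY1-/- ProteinFx. Of all genes tested, 22.8% were lower and 21.7% higher with RNY1+/+ EVFx, and 30.7% and 27.6% with RNY1-/- EVFx. With RNY1+/+ ProteinFx 29.3% were lower and 25.9% higher, and with RNY1-/- ProteinFx 2061 and 1817 of 10855. Defining markers of other Fc receptor-bearing cells were near 0, at most 1.48 CPM summed over 7 mast cell and basophil genes, 1.51 CPM over 6 NK cell genes and 5.595 CPM over 6 B cell genes. The neutrophil list, mostly S100a8 and S100a9, with Ly6g at 0 in 4 of the groups, summed to 282 to 333 CPM with PBS, 143 to 209 and 184 to 265 CPM with RNY1+/+ and RNY1-/- EVFx, and 198 to 354 CPM with ProteinFx. Of its genes tested against PBS, 4 of 4 were lower with RNY1+/+ EVFx and 3 of 4 with RNY1-/- EVFx, and 1 of 3 with each ProteinFx, beside the same shares of all genes. The eosinophil list, carried by Ccr3 with Epx and Il5ra at 0, summed to 7.17 to 13.5 CPM with PBS, 0.801 to 2.46 CPM with EVFx and 12.4 to 21.1 CPM with ProteinFx. The part of these lists in the results was not tested. Rny1 had 2 entries, and the larger count of these in each library summed to at most 4.5 over the 4 libraries of a group. In wild-type recipients such counts check nothing about the donors. The 4 RNY1-/- ProteinFx libraries fell into pairs, replicates 1 and 2 against 3 and 4, in several of the genes below, so the members' tests that rest on this group were also run with each pair alone. Because the pairs were picked from values of these same genes, results by pair only describe how far a value depends on the libraries used. Their adjusted p-values are no support for an effect or for a difference between the pairs. In bulk libraries fewer expressing cells and less mRNA per cell cannot be told apart.

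A gene is called changed at a Benjamini-Hochberg adjusted p under 0.05 in edgeR's quasi-likelihood test over all genes kept, and all adjusted p-values and standard errors (SE) below come from it. Of the 6 members, 4 changed with RNY1+/+ EVFx against PBS, where 44.5% of all genes tested changed. With RNY1-/- EVFx 4 changed, beside 58.3% of all genes. With RNY1+/+ ProteinFx 4 changed, beside 55.2%, and with RNY1-/- ProteinFx 4 changed, beside 35.7%. The treated libraries and the PBS libraries did not overlap in CPM for 4, 3, 4 and 4 members in the same order of treatments, which held for 43.6%, 52.3%, 46.9% and 30.9% of genes. With 6 genes these shares say little about the family as a whole, and the account below is of single genes. The 4 comparisons share their PBS libraries and are therefore set side by side without a test between them. PBS replicate 3 was the lowest PBS library in every member but Fcgr2b. Without it the genes changed rose from 4807, 6256, 5981 and 3878 to 6037, 7517, 7422 and 5728, in the same order of treatments. Leaving out any other PBS library lowered them, so the shares of all genes depend on the PBS libraries used.

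**Figure D1:**
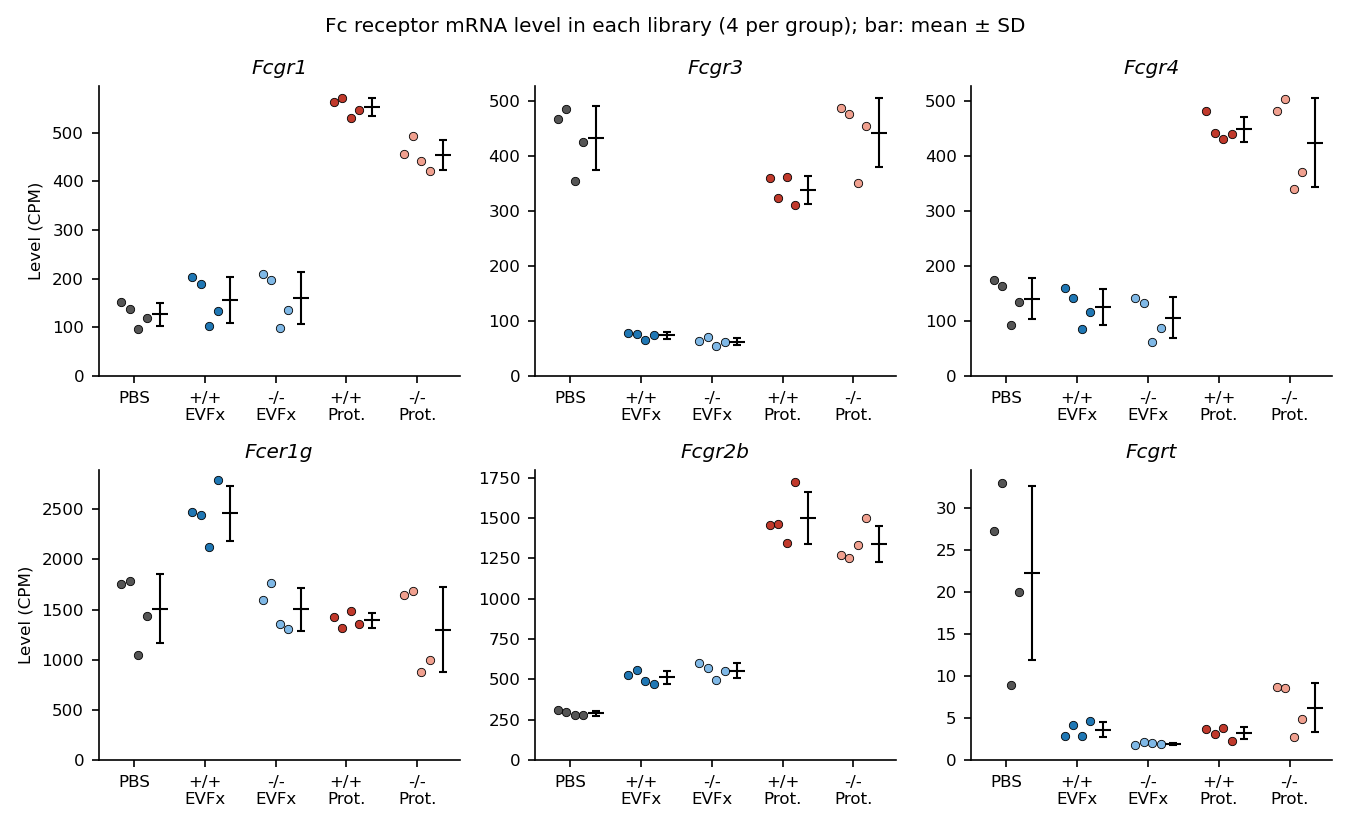
Level of each Fc receptor mRNA in CPM (vertical axes, each from 0) in the 20 libraries, with 4 points per group in the order of replicates 1 to 4 and a bar for mean ± SD. Fcgr1, Fcgr4 and Fcgr2b were highest in the ProteinFx groups, Fcgr3 was lowest in the EVFx groups, Fcer1g was highest with RNY1+/+ EVFx and Fcgrt was highest with PBS.

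Fcgr1 and Fcgr4, which encode the high-affinity receptor FcγRI and the mouse receptor FcγRIV for IgG2a and IgG2b, rose with ProteinFx. With EVFx their differences from PBS were smaller, and that of Fcgr1 with RNY1-/- EVFx alone passed the test. Fcgr1 (ENSMUSG00000015947) read 153, 137, 97.4 and 120.1 CPM in PBS replicates 1 to 4, and 563, 572, 531 and 547 CPM with RNY1+/+ ProteinFx. With RNY1-/- ProteinFx it read 457, 494, 443 and 422 CPM. The ProteinFx libraries of either genotype thus lay above every PBS library. The rise was 4.90-fold with RNY1+/+ ProteinFx (log2 2.29, SE 0.14, adjusted p = 1.4e-07) and 3.74-fold with RNY1-/- ProteinFx (log2 1.91, SE 0.15, adjusted p = 6e-06). The latter was log2 1.93 with RNY1-/- ProteinFx replicates 1 and 2 alone and 1.90 with 3 and 4 alone, and passed with either (adjusted p = 0.00018 and 0.00015).

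With EVFx, Fcgr1 read 203, 189, 102 and 133 CPM for RNY1+/+ donors and 210 (209.9), 198, 98.3 and 135 CPM for RNY1-/- donors, and both groups overlapped PBS. In each of these 3 groups replicate 3, the library of lowest depth, was also the lowest in Fcgr1; the part of depth in this was not tested. The RNY1+/+ EVFx difference from PBS was log2 0.48 (SE 0.21, adjusted p = 0.088), and it passed the test without RNY1+/+ EVFx replicate 3 (log2 0.64, adjusted p = 0.023) and with no filter on low counts (log2 0.55, adjusted p = 0.0021). The RNY1-/- EVFx difference of log2 0.58 (SE 0.22, adjusted p = 0.043) passed. With the replicate number as a block it was log2 0.54 (SE 0.12, adjusted p = 0.0022), although no label states that same-numbered libraries are paired. Without the block the call was lost when libraries were scaled by total counts (adjusted p = 0.21). It was also lost without PBS replicate 2 (adjusted p = 0.06), PBS replicate 4 (0.084) or RNY1-/- EVFx replicate 1 (0.13), 2 (0.11) or 4 (0.054). Ordered by mean, Fcgr1 ran PBS, RNY1+/+ EVFx, RNY1-/- EVFx, RNY1-/- ProteinFx and RNY1+/+ ProteinFx, and the neighbours among the PBS and EVFx groups did not differ beyond their spread.

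Fcgr4 (ENSMUSG00000059089) read 175, 163, 92.2 and 134 CPM in PBS. It read 483, 443, 431 and 441 CPM with RNY1+/+ ProteinFx and 483, 505, 340.2 and 371 CPM with RNY1-/- ProteinFx. Every ProteinFx library was above every PBS library, and within RNY1-/- ProteinFx replicates 1 and 2 were higher than 3 and 4. The rise from PBS was 3.58-fold (log2 1.84, SE 0.18, adjusted p = 6.5e-06) and 3.14-fold (log2 1.65, SE 0.20, adjusted p = 0.00019). It held with RNY1-/- ProteinFx replicates 1 and 2 alone (log2 1.83, adjusted p = 0.001) and with 3 and 4 alone (log2 1.46, adjusted p = 0.0025). With EVFx, Fcgr4 spanned 85.3 to 161 CPM for RNY1+/+ donors and 61.8 to 142 CPM for RNY1-/- donors. Both EVFx groups overlapped PBS, with 95% intervals of the log2 difference from -0.47 to 0.51 and from -0.73 to 0.40. In order of mean, Fcgr4 ran RNY1-/- EVFx, RNY1+/+ EVFx, PBS, RNY1-/- ProteinFx and RNY1+/+ ProteinFx, and of these steps that from PBS to RNY1-/- ProteinFx alone exceeded the spread. The mean CPM of RNY1+/+ EVFx was below that of PBS, while the TMM-scaled difference was log2 0.02.

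Part of the promoter of Fcgr4 is shown because it alone among the members' windows held a match to the core of the interferon-stimulated response element, a pair of GAAA blocks with 2 bases between them. The windows are the 300 bases around each gene's start in RefSeq GRCm38.p6, and were found for all 6 members, with 2 overlapping entries for Fcgr3. Both strands were searched, and capitals mark the match.
Fcgr4, chr1:171018843-171018872, plus strand: ggtgtttctgGAAAAGGAAActggtgagat
The match began 73 bases before the start of Fcgr4. Of 32851 promoters of the same length, 1131 (3.44%) held the paired GAAA blocks. The letters TTC and GAA with 4 bases between them, the spacing that STAT6 prefers, were in 6.95% of promoters and in none of the members' windows. A match is a stretch of letters only, and its use in these cells was not measured.

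Fcgr3 (ENSMUSG00000059498), which encodes the activating low-affinity receptor FcγRIII, behaved otherwise, falling with EVFx and standing near PBS with ProteinFx. It read 466, 484, 354 and 425 CPM in PBS. With EVFx it read 77.9, 76.7, 65.3 and 74.8 CPM for RNY1+/+ donors and 62.8, 70.7, 54.2 and 62.0 CPM for RNY1-/- donors. All 8 EVFx libraries were far below every PBS library. The fall was 5.19-fold with RNY1+/+ EVFx (log2 -2.38, SE 0.12, adjusted p = 8.1e-08) and 5.86-fold with RNY1-/- EVFx (log2 -2.55, SE 0.13, adjusted p = 8e-08). It ranged from log2 -2.46 to -2.32 and from -2.62 to -2.48 as each library was left out in turn.

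With ProteinFx, Fcgr3 read 359, 324, 361 and 310.1 CPM for RNY1+/+ donors and 488, 476, 351 and 453 CPM for RNY1-/- donors, and both groups overlapped PBS. The differences from PBS were log2 -0.19 (95% interval -0.45 to 0.07, adjusted p = 0.2) and log2 0.10 (-0.21 to 0.40, adjusted p = 0.6), the latter at log2 0.18 with RNY1-/- ProteinFx replicates 1 and 2 and 0.03 with 3 and 4, neither passing. The RNY1+/+ ProteinFx value passed the test when scaled by total counts (log2 -0.35, adjusted p = 0.025) and without PBS replicate 3, the lowest PBS library (log2 -0.27, adjusted p = 0.016). In order of mean, Fcgr3 ran RNY1-/- EVFx, RNY1+/+ EVFx, RNY1+/+ ProteinFx, PBS and RNY1-/- ProteinFx. Of these neighbours, RNY1+/+ EVFx and RNY1+/+ ProteinFx alone differed beyond their spread.

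Fcer1g (ENSMUSG00000058715), the signalling chain that the activating receptors share, was raised by RNY1+/+ EVFx. It read 1754, 1788, 1048 and 1438 CPM in PBS and 2468, 2441, 2127 and 2795 CPM with RNY1+/+ EVFx, with no overlap, a 1.84-fold rise (log2 0.88, SE 0.16, adjusted p = 0.0012). With RNY1-/- EVFx it read 1594, 1762, 1354 and 1302 CPM, within the range of PBS (log2 0.23, 95% interval -0.13 to 0.60, adjusted p = 0.25). The 2 EVFx groups themselves are compared further on.

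With ProteinFx, Fcer1g spanned 1315 to 1482 CPM for RNY1+/+ donors and 876 to 1683 CPM for RNY1-/- donors, where replicates 1 and 2 read 1648 and 1683 CPM and replicates 3 and 4 read 876 and 995 CPM. The differences from PBS were log2 0.06 (95% interval -0.29 to 0.40) and log2 -0.16 (-0.67 to 0.35), and neither passed the test. Once each library's count trends against the length and GC content of transcripts had been taken out, Fcer1g passed against PBS with RNY1-/- EVFx (log2 0.62, adjusted p = 0.00086) and with RNY1+/+ ProteinFx (log2 0.47, adjusted p = 0.0028). Its longest annotated transcript, of 683 bases, is the shortest among the members. In order of mean, Fcer1g ran RNY1-/- ProteinFx, RNY1+/+ ProteinFx, RNY1-/- EVFx, PBS and RNY1+/+ EVFx, and the step from PBS to RNY1+/+ EVFx exceeded the spread. This order is of unscaled CPM; after TMM scaling RNY1-/- EVFx and RNY1+/+ ProteinFx stood above PBS, by the log2 0.23 and 0.06 given above, so their place relative to PBS is not settled. RNY1+/+ ProteinFx and RNY1-/- EVFx were not tested against each other and overlapped, and the other neighbours did not pass the test.

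Fcgr2b (ENSMUSG00000026656), the inhibitory receptor, rose with all 4 fractions and most with ProteinFx. It read 308, 298, 278 and 276 CPM in PBS. EVFx brought it to 530 (529.7), 561, 493 and 471 CPM for RNY1+/+ donors and to 603, 570.0, 495 and 550.4 CPM for RNY1-/- donors. ProteinFx brought it to 1457, 1464, 1345 and 1725 CPM and to 1273, 1250 (1249.6), 1332 and 1497 CPM. The 3 levels, PBS, EVFx and ProteinFx, did not overlap in any library. Against PBS the rise was 2.00-fold with RNY1+/+ EVFx (log2 1.00, SE 0.09, adjusted p = 8.2e-06) and 2.26-fold with RNY1-/- EVFx (log2 1.18, SE 0.10, adjusted p = 3.3e-06). With ProteinFx it was 5.82-fold (log2 2.54, SE 0.12, adjusted p = 1.5e-08) and 4.85-fold (log2 2.28, SE 0.12, adjusted p = 3.9e-07), the latter at log2 2.15 with RNY1-/- ProteinFx replicates 1 and 2 alone and 2.42 with 3 and 4 alone (adjusted p = 9.5e-06 and 4.2e-06). In each of the 4 comparisons with PBS it had the largest estimated rise of the 6 members. With length and GC trends taken out it had so with RNY1-/- EVFx alone: Fcer1g was then ahead with RNY1+/+ EVFx (log2 1.06 against 0.84 for Fcgr2b), and Fcgr1 with RNY1+/+ ProteinFx (2.44 against 2.22) and RNY1-/- ProteinFx (2.05 against 2.01). In order of mean, Fcgr2b ran PBS, RNY1+/+ EVFx, RNY1-/- EVFx, RNY1-/- ProteinFx and RNY1+/+ ProteinFx, and neither of the steps within a fraction exceeded the spread. Counts of Fcgr2b and Fcgr3 were in part fractional, in 11 and 9 of the 20 libraries. Some of their reads thus also matched elsewhere and were split. The split between these similar genes is uncertain, and its part in their values was not tested.

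Fcgrt (ENSMUSG00000003420), the neonatal receptor, was the least counted member and fell with all 4 fractions. It read 27.3, 32.9, 8.92 and 19.9 CPM in PBS, from 39 to 213 counts. With EVFx it spanned 2.80 to 4.59 CPM (14 to 38 counts) for RNY1+/+ donors and 1.84 to 2.08 CPM (8 to 14 counts) for RNY1-/- donors. With ProteinFx it spanned 2.26 to 3.77 CPM (12 to 19 counts) for RNY1+/+ donors and read 8.69, 8.53, 2.79 and 4.93 CPM (7 to 61 counts) for RNY1-/- donors. All 16 treated libraries were below the lowest PBS library, which was replicate 3. The fall was 5.42-fold with RNY1+/+ EVFx (log2 -2.44, SE 0.36, adjusted p = 0.00023) and 9.75-fold with RNY1-/- EVFx (log2 -3.29, SE 0.38, adjusted p = 3.4e-05). Fcgrt averaged 22.3 CPM in PBS and 1.94 CPM with RNY1-/- EVFx, so it was kept for that test only through PBS. With length and GC trends taken out, the RNY1-/- EVFx fall was log2 -2.80. The fall was 6.32-fold with RNY1+/+ ProteinFx (log2 -2.66, SE 0.38, adjusted p = 0.00014) and 3.25-fold with RNY1-/- ProteinFx (log2 -1.70, SE 0.40, adjusted p = 0.0092). In the last group the fall was log2 -2.35 (adjusted p = 0.015) with replicates 3 and 4 alone and missed the test with replicates 1 and 2 alone (log2 -1.35, adjusted p = 0.083). In order of mean, Fcgrt ran RNY1-/- EVFx, RNY1+/+ ProteinFx, RNY1+/+ EVFx, RNY1-/- ProteinFx and PBS. The step to PBS exceeded the spread, RNY1+/+ ProteinFx and RNY1+/+ EVFx did not differ beyond it, and the other neighbours were not tested against each other.

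**Figure D2:**
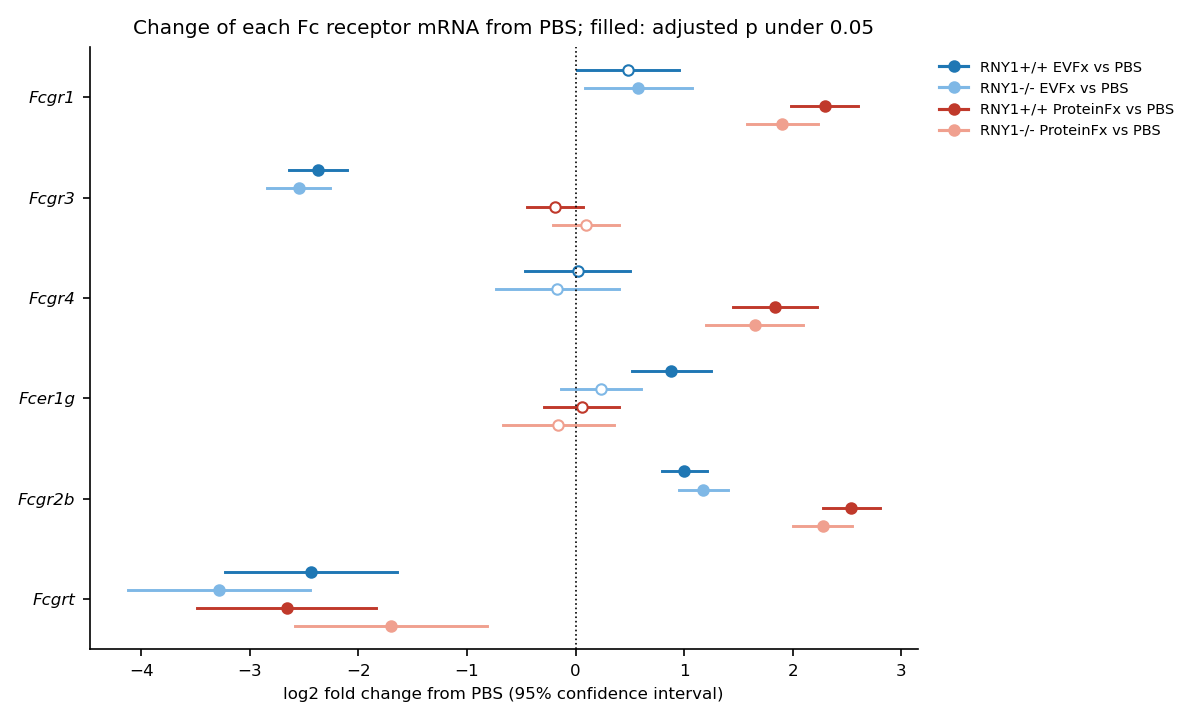
log2 fold change of each member from PBS (horizontal axis) with its unadjusted 95% confidence interval, for the 4 treatments, each with 4 libraries against the same 4 PBS libraries. Filled points passed an adjusted p of 0.05: Fcgr1, Fcgr4 and Fcgr2b lie to the right with ProteinFx, Fcgr3 lies at -2.38 and -2.55 with EVFx, and Fcgrt lies to the left throughout.

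Because all these genes are counted within the same library, the ratio of an activating receptor to Fcgr2b does not depend on library scaling, and its change between groups is given here as a description. Fcgr3 over Fcgr2b was 1.49 ± 0.15 in PBS (SD, n = 4). It was 0.144 ± 0.012 with RNY1+/+ EVFx and 0.113 ± 0.009 with RNY1-/- EVFx, which are 10.4-fold and 13.2-fold below PBS. With ProteinFx it was 0.229 ± 0.038 and 0.332 ± 0.059, which are 6.51-fold and 4.48-fold below. The ratio was thus lower with every fraction, through a lower Fcgr3 and a higher Fcgr2b with EVFx and through a higher Fcgr2b with ProteinFx. Fcgr4 over Fcgr2b was 1.98-fold and 2.56-fold below PBS with EVFx and 1.60-fold and 1.503-fold below with ProteinFx. In this ratio the RNY1-/- ProteinFx libraries (0.248 to 0.404) overlapped PBS (0.332 to 0.568), and the other groups did not. For Fcgr1 over Fcgr2b the values were 1.44-fold, 1.53-fold, 1.17-fold and 1.27-fold below. RNY1+/+ EVFx (0.207 to 0.383) and RNY1+/+ and RNY1-/- ProteinFx (0.317 to 0.3945 and 0.282 to 0.3955) here overlapped PBS (0.3505 to 0.496). The ratios are not free of trends with transcript length and GC content. With these taken out, Fcgr1 rose more than Fcgr2b with either ProteinFx, as given above (log2 2.44 against 2.22 for RNY1+/+ donors), and less with either EVFx. Among the activating genes themselves, Fcgr1 over Fcgr3 was 7.20-fold and 8.68-fold above PBS with EVFx and 5.63-fold and 3.57-fold above with ProteinFx.

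**Figure D3:**
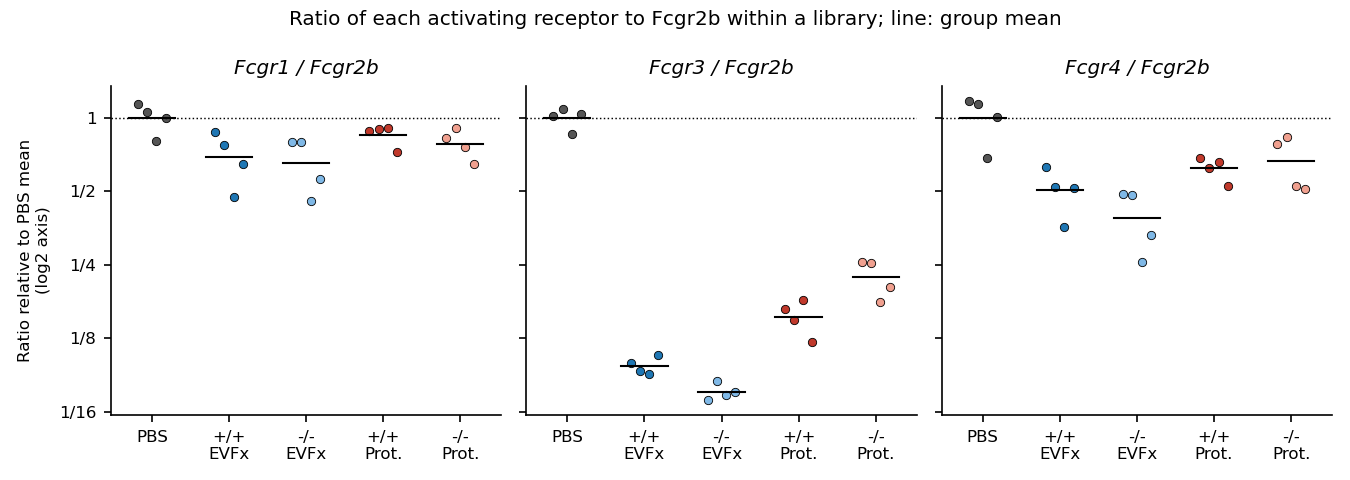
Ratio of Fcgr1, Fcgr3 and Fcgr4 counts to Fcgr2b counts within each library, divided by the PBS mean, on a log2 axis, with 4 points per group and a line at the group mean. Fcgr3 over Fcgr2b is furthest below the PBS level of 1 in all 4 treated groups.

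Set directly against each other, the 2 fractions differed in most members. For RNY1+/+ donors 5 of 6 differed between ProteinFx and EVFx, beside 63.3% of all genes, and the libraries of these 5 did not overlap, which held for 55.0% of genes. Fcgr3 was 4.58-fold higher with ProteinFx (log2 2.19, SE 0.09, adjusted p = 6.4e-11), the largest difference of the members. Fcgr1 (log2 1.82, adjusted p = 2.7e-07), Fcgr4 (log2 1.83, adjusted p = 7.4e-08) and Fcgr2b (log2 1.55, adjusted p = 1.2e-08) were also higher with ProteinFx. Fcer1g was lower with ProteinFx (log2 -0.82, SE 0.10, adjusted p = 4e-06), so the signalling chain and the activating receptors that use it differed in opposite directions. Fcgrt did not differ beyond its spread (log2 -0.22, 95% interval -0.74 to 0.31).

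For RNY1-/- donors 5 of 6 members differed between ProteinFx and EVFx, beside 29.2% of all genes, with no overlap for 5, which held for 33.0% of genes. All 5 were higher with ProteinFx: Fcgr3 6.26-fold (log2 2.65, adjusted p = 2.7e-08), Fcgr4 3.52-fold (log2 1.82, adjusted p = 5.2e-05), Fcgrt 3.02-fold (log2 1.59, adjusted p = 0.0016), Fcgr1 2.51-fold (log2 1.33, adjusted p = 0.00021) and Fcgr2b 2.14-fold (log2 1.10, adjusted p = 1.5e-05). Fcer1g was lower without passing the test (log2 -0.39, SE 0.18, adjusted p = 0.14). It passed with the replicate number as a block (log2 -0.43, adjusted p = 0.011) and with RNY1-/- ProteinFx replicates 3 and 4 alone (log2 -0.80, adjusted p = 0.00048), but not with 1 and 2 alone (log2 -0.06, adjusted p = 0.71). The other 5 passed with replicates 1 and 2 alone and, except Fcgrt, which was then under the minimum level, with 3 and 4 alone. Fcgrt averaged 6.23 CPM with RNY1-/- ProteinFx and 1.94 CPM with RNY1-/- EVFx, so it was kept for this test only through its higher group.

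Between EVFx of RNY1-/- and RNY1+/+ donors, 1 of the 5 members tested differed, beside 52.1% of all genes. This was Fcer1g, at 2458 ± 273 CPM with RNY1+/+ EVFx and 1503 ± 214 CPM with RNY1-/- EVFx (SD, n = 4), with no overlap, as for 44.6% of genes. It was 1.56-fold lower with RNY1-/- EVFx (log2 -0.64, SE 0.10, adjusted p = 0.00044), and lay between log2 -0.72 and -0.59 as each library was left out and at log2 -0.44 (adjusted p = 0.005) with length and GC trends taken out. The log2 differences of the other receptors were 0.10 for Fcgr1, -0.17 for Fcgr3, -0.17 for Fcgr4 and 0.18 for Fcgr2b, with adjusted p from 0.072 to 0.72. Fcgr3 passed the test without RNY1+/+ EVFx replicate 3 (log2 -0.23, adjusted p = 0.044) and Fcgr2b without RNY1-/- EVFx replicate 3 (log2 0.22, adjusted p = 0.036), while Fcgr1 turned its sign without RNY1+/+ EVFx replicate 3 (log2 -0.06) or RNY1-/- EVFx replicate 1 (log2 -0.05). Fcgrt was under the minimum mean of 3 CPM and was not tested; without that minimum it was 1.81-fold lower with RNY1-/- EVFx (log2 -0.85, SE 0.24, adjusted p = 0.011), on 8 to 38 counts per library.

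Between ProteinFx of RNY1-/- and RNY1+/+ donors, 1 of 6 members differed, beside 5.57% of all genes. Fcgr1 was 553 ± 18.4 CPM with RNY1+/+ ProteinFx and 454 ± 30.3 CPM with RNY1-/- ProteinFx (SD, n = 4), with no overlap, as for 14.2% of genes, and a log2 difference of -0.37 (SE 0.09, adjusted p = 0.034). The size of this difference stayed between log2 -0.40 and -0.36 as each library was left out, but its adjusted p rose above the threshold without any one of the 4 RNY1+/+ ProteinFx libraries (0.1, 0.1, 0.058 and 0.1) and without RNY1-/- ProteinFx replicate 1 (0.094) or 4 (0.077). The call was also lost with total counts (adjusted p = 0.091), scaling to the genes Rab14, Arpc2 and Cltc (0.11), no filter on low counts (0.13), all 20 libraries in one fit (0.3), thinning to equal depth (0.067) and the replicate block (0.1). With RNY1-/- ProteinFx replicates 1 and 2 alone it was log2 -0.35 (adjusted p = 0.014) and with 3 and 4 alone log2 -0.39 (adjusted p = 0.023).

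The values of the remaining members varied with the RNY1-/- ProteinFx pair used. The pairs were picked from such values, so the adjusted p-values of single pairs here are descriptive only. Fcgrt was 0.98 higher on the log2 scale with RNY1-/- ProteinFx (SE 0.31, adjusted p = 0.087), with 1.31 (adjusted p = 0.0017) for replicates 1 and 2 and 0.32 (adjusted p = 0.62) for replicates 3 and 4. Without RNY1-/- ProteinFx replicate 3 both Fcgrt (log2 1.15, adjusted p = 0.014) and Fcgr3 (log2 0.38, adjusted p = 0.037) passed, against log2 0.30 and adjusted p = 0.16 for Fcgr3 with all libraries. Fcer1g was at log2 0.12 with replicates 1 and 2 and at log2 -0.61 (adjusted p = 0.0038) with 3 and 4, and Fcgr4 at log2 -0.00013 and log2 -0.37 (adjusted p = 0.035). Fcgr2b was at log2 -0.39 (adjusted p = 0.026) with replicates 1 and 2 and at log2 -0.12 (adjusted p = 0.6) with 3 and 4.

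Whether the donor genotype acted differently in the 2 fractions was tested over the 16 fraction libraries as the RNY1-/- minus RNY1+/+ difference in ProteinFx less that in EVFx. By this test 3 of 6 members differed, beside 33.0% of all genes. Fcgrt had the largest estimate, log2 1.84 (SE 0.40, adjusted p = 0.0048), at a mean of 3.74 CPM over these libraries. Its means were 3.59 and 1.94 CPM with RNY1+/+ and RNY1-/- EVFx and 3.18 and 6.23 CPM with RNY1+/+ and RNY1-/- ProteinFx. It was kept for the test only through RNY1-/- ProteinFx, the group where it was high, so this call is no support for a difference. Fcgr3 differed by log2 0.47 (SE 0.14, adjusted p = 0.021), from log2 -0.17 in EVFx and 0.30 in ProteinFx. Fcgr2b differed by log2 -0.43 (SE 0.15, adjusted p = 0.034), from log2 0.18 in EVFx and -0.25 in ProteinFx. With RNY1-/- ProteinFx replicates 3 and 4 alone no member passed edgeR's test: Fcgrt was at log2 1.18 (adjusted p = 0.1), Fcgr3 at 0.40 (0.12) and Fcgr2b at -0.29 (0.26), and 2 members passed at an unadjusted p. With replicates 1 and 2 alone 4 passed, Fcer1g in addition (log2 0.77, adjusted p = 0.0003). The Fcgr2b call was lost when scaled by total counts (log2 -0.27, adjusted p = 0.12). It was also lost without any one of 9 libraries, RNY1+/+ EVFx replicate 3 or 4, RNY1-/- EVFx replicate 1 or 4, RNY1+/+ ProteinFx replicate 1, 2 or 4, or RNY1-/- ProteinFx replicate 1 or 2, with adjusted p from 0.051 to 0.089. Fcgr1 (log2 -0.48, adjusted p = 0.18) passed without RNY1-/- EVFx replicate 3 (log2 -0.65, adjusted p = 0.045), and Fcer1g (log2 0.44, adjusted p = 0.12) without RNY1-/- ProteinFx replicate 3 (log2 0.59, adjusted p = 0.018) or 4 (log2 0.55, adjusted p just under 0.05).

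**Figure D4:**
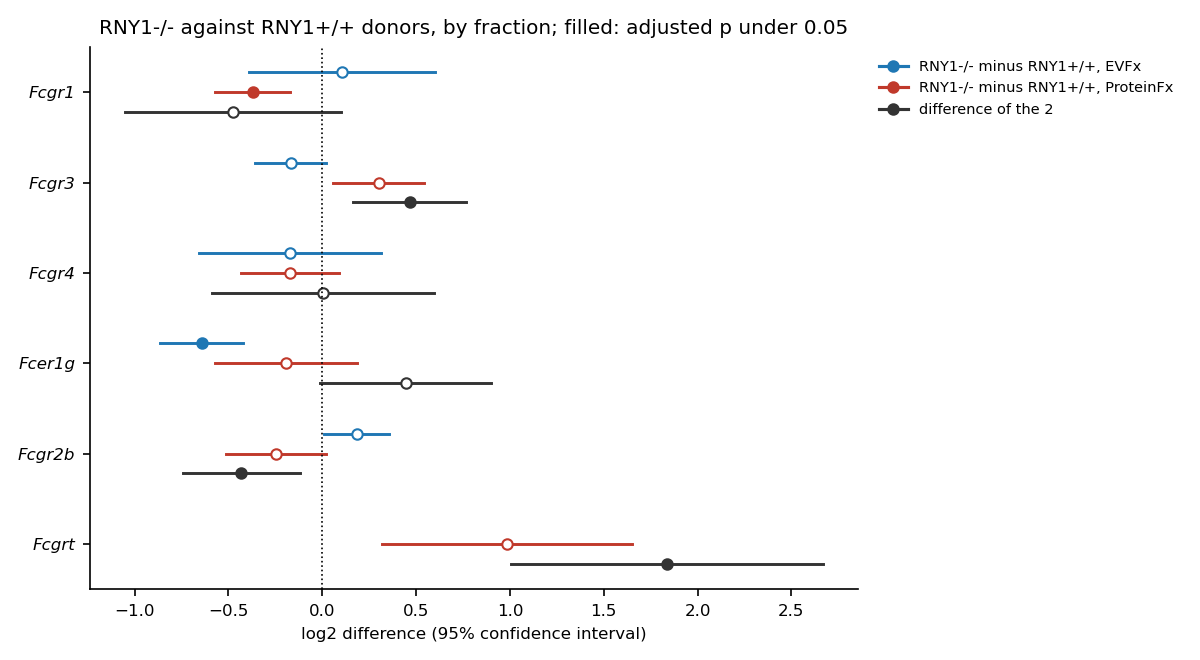
log2 difference between RNY1-/- and RNY1+/+ donors for each member (horizontal axis, with unadjusted 95% intervals) within EVFx, within ProteinFx, and the difference between these, with 4 libraries per group. Filled points passed an adjusted p of 0.05; Fcgrt has no EVFx point because it was under the minimum level for that comparison.

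Over the 20 libraries Fcgr1 and Fcgr4 had the most similar patterns of any member pair, with a Pearson r of 0.960 between their log2 levels, followed by Fcgr1 and Fcgr2b at 0.932 and Fcgr4 and Fcgr2b at 0.828. Fcgr3 and Fcgr2b, between which Fcgr4 is the only protein-coding gene on chromosome 1, had an r of 0.248. Fcer1g ran against Fcgr3, with an r of -0.555. These values describe 20 libraries in 5 treatment groups, and the genes of a library share its depth.

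Among 7553 genes with a mean of at least 10 CPM, those most like Fcgr1 were Themis2 (r = 0.977), Gm5431 (0.971) and the chemokine gene Ccl8 (0.968), and Themis2 (0.971), Cd72 (0.967) and Ccl8 (0.965) were those most like Fcgr4. Fcgr2b was followed by Ddhd1 (0.993), Selenot (0.990) and Ccl12 (0.981). Osbpl11 (0.987), Gpx1 (0.976) and Adam8 (0.975) ran closest to Fcgr3. Ubr4 (0.968), Adprh (0.965) and Rac2 (0.965) ran closest to Fcer1g, and Syngr1 (0.979), Tnfsf12 (0.978) and Fuca1 (0.975) to Fcgrt. Themis2 and Ccl8 were the only genes to appear for 2 members.

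The partner chains moved with the receptors in different ways. B2m, the light chain of the neonatal receptor, rose with all 4 fractions, from 5550 (5549.96) ± 334 CPM in PBS to 9122 ± 522 CPM with RNY1+/+ EVFx (log2 0.89, SE 0.10, adjusted p = 2.9e-05) and 12371 ± 1022 CPM with RNY1+/+ ProteinFx (log2 1.33, SE 0.11, adjusted p = 2.1e-06), while its heavy-chain gene Fcgrt fell. Tyrobp, which encodes the ITAM adaptor DAP12 of other receptors, fell from 1371 ± 323 CPM in PBS with all 4, by 1.12 to 1.47 on the log2 scale. Hcst, the gene of the related adaptor DAP10, fell with all 4 as well (log2 -1.29 to -1.82). Fcer1g thus rose with RNY1+/+ EVFx where the related adaptors fell. Of 13 other Fc receptor and Fc-binding genes, 2 were counted well enough to test against PBS. Between ProteinFx genotypes and between the RNY1+/+ fractions 1 was, so these genes are in part near the minimum level. Fcrl1 fell with all 4 fractions, between log2 -0.85 and -3.08. It was the gene not kept between ProteinFx genotypes and between the RNY1+/+ fractions. Its ProteinFx calls against PBS thus rest on PBS, its higher group. Trim21, a cytosolic antibody receptor, rose with all 4 fractions, between log2 1.15 and 1.57. The other chains of the mast cell IgE receptor, Fcer1a and Ms4a2, were at or near 0 in every group.

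Of 23 genes tested for the kinases, adaptors and enzymes that carry the activating signal, 12 rose and 2 fell with RNY1+/+ EVFx, with a median log2 change of 0.37 against -0.03 over all genes, of which 21.7% rose and 22.8% fell. With RNY1-/- EVFx 10 rose and 5 fell, beside 27.6% and 30.7% of all genes, and with RNY1+/+ ProteinFx 8 rose and 5 fell, beside 25.9% and 29.3%. With RNY1-/- ProteinFx 5 rose and 3 fell of 22 tested, with a median of -0.09, where 1817 and 2061 of all 10855 genes tested rose and fell. Lyn, a Src family kinase, rose 3.19-fold with RNY1+/+ ProteinFx (adjusted p = 2.2e-07), and Lcp2, which encodes the adaptor SLP-76, rose 2.58-fold and 2.87-fold with RNY1+/+ EVFx and RNY1+/+ ProteinFx. Syk itself was lower with ProteinFx than with EVFx, by 1.09 on the log2 scale for RNY1+/+ donors (adjusted p = 5.8e-08) and by 0.82 for RNY1-/- donors (adjusted p = 0.00025; log2 -0.64 with RNY1-/- ProteinFx replicates 1 and 2 and -1.03 with 3 and 4, both passing).

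Of 18 inhibitory signal genes 4 were higher and 5 lower with RNY1+/+ EVFx, beside the 21.7% and 22.8% of all genes, and 5 were higher and 5 lower with RNY1+/+ ProteinFx, beside 25.9% and 29.3%. These shares are near those of all genes, and the account is of single genes. Cd300a, an inhibitory receptor, fell the furthest with these 2 fractions, 4.68-fold (log2 -2.23, adjusted p = 4.9e-06) and 6.16-fold (log2 -2.62, adjusted p = 2.2e-06). Inppl1, the gene of the phosphatase SHIP2, fell by 1.28 with RNY1+/+ ProteinFx and by 1.71 with RNY1-/- EVFx on the log2 scale. Lilrb4a, another inhibitory receptor, rose 2.12-fold with RNY1+/+ EVFx. Of the 5 genes of the phagocyte NADPH oxidase, which makes superoxide at the phagosome, 3 rose and none fell with RNY1+/+ EVFx, and 3 rose and 1, Cyba, fell with RNY1-/- EVFx (log2 -0.81), beside 27.6% and 30.7% of all genes. With RNY1+/+ ProteinFx 2 rose and Cyba fell (log2 -0.97), and with RNY1-/- ProteinFx 2 rose and none fell. Cybb, its catalytic subunit gp91phox, went from 1539 ± 208 CPM in PBS to 6002 ± 644 CPM with RNY1+/+ EVFx (log2 2.14, adjusted p = 3.3e-07) and 4204 ± 562 CPM with RNY1+/+ ProteinFx (log2 1.62, adjusted p = 3.3e-06). Of 21 phagocytic cup and actin genes 2 rose and 6 fell with RNY1+/+ EVFx, where 21.7% and 22.8% of all genes rose and fell. With RNY1+/+ ProteinFx 3 rose and 7 fell, beside 25.9% and 29.3%. In both, the falls were near the share of all genes and the rises were below it. With RNY1-/- EVFx 3 rose and 11 fell, beside 27.6% and 30.7%, so there the falls exceeded that share. With RNY1-/- ProteinFx 2 rose and 5 fell, beside 1817 and 2061 of all 10855 genes tested. Gsn, which encodes an actin-severing protein, fell in all 4 comparisons with PBS (log2 -0.92 to -1.49).

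**Figure D5:**
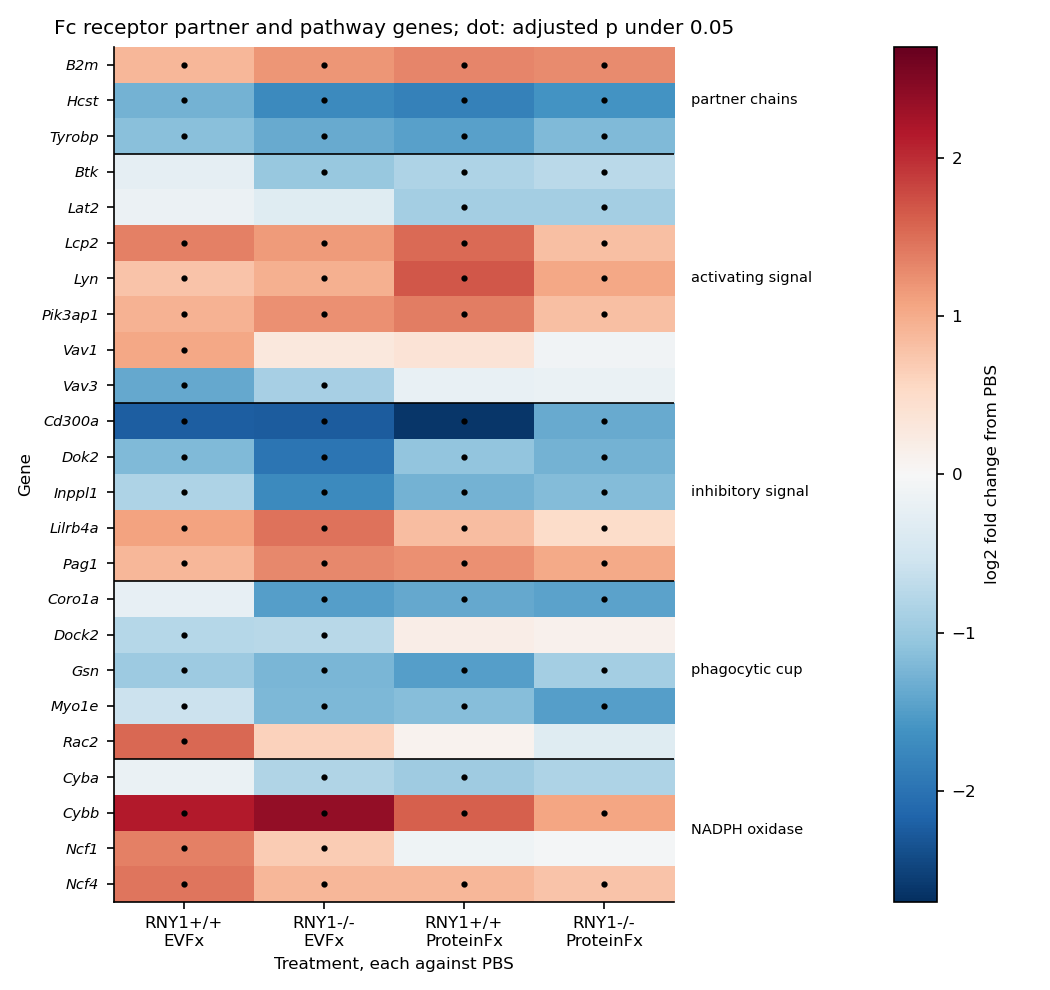
log2 fold change from PBS (colour) for genes of 5 lists around the Fc receptors, in rows, against the 4 treatments, in columns, each of 4 libraries against 4 PBS libraries; a dot marks an adjusted p under 0.05. Rows are those named by the size of their change in any of the 4 comparisons, with Cd300a the darkest blue at -2.62 and Cybb the darkest red at 2.38.

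By donor genotype, the lists are set beside the shares of all genes, which were much larger for EVFx than for ProteinFx. With RNY1-/- against RNY1+/+ EVFx, 10 of 23 activating signal genes were lower and 3 higher, 4 of 5 oxidase genes were lower, 10 of 21 phagocytic cup genes were lower and 4 higher, and 5 of 18 inhibitory signal genes were lower and 5 higher, while 26.6% of all genes were lower and 25.5% higher. The phagocytic cup genes with the largest differences were Rhog (log2 -1.27, adjusted p = 0.00023), Coro1a (log2 -1.24, adjusted p = 0.00029) and Rac2 (log2 -0.93, adjusted p = 0.00023), which encode regulators of actin and, for Rac2, of the oxidase. With RNY1-/- against RNY1+/+ ProteinFx, 3 of 23 activating signal genes were lower, namely Lcp2 (log2 -0.70, adjusted p = 0.0059), Lyn (log2 -0.61, adjusted p = 0.0043) and Pik3ap1 (log2 -0.57, adjusted p = 0.013), while 3.37% of all genes were lower and 2.20% higher. Cybb was also lower (log2 -0.53, adjusted p = 0.027), and Cd300a was higher (log2 1.29, adjusted p = 0.0043). Of these 5 genes all passed with RNY1-/- ProteinFx replicates 1 and 2 alone, and all but Cybb (log2 -0.43, adjusted p = 0.062) with 3 and 4 alone, a split added after the values were seen.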

How the data were processed

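Reads were made from the 3′ ends of polyadenylated RNA, and the names of all 20 libraries share a prefix. Per the labels, the authors' processing notes name FastQC 0.12.1, fastp 0.24.0, STAR 2.7.11, SAMtools 1.22.1, MultiQC 1.32, featureCounts of Subread 2.1.1, edgeR 4.0.16 and the build GRCm39; reads were collapsed on molecular identifiers and reads matching several places were counted in fractions, by strand. The authors deposited these estimated counts per gene, which need not be whole, and CPM values, which equal the count divided by the library's total of all genes times 1000000. Levels in the text are the deposited CPM. All columns matched a sample by its label.

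For tests, counts were rounded and analysed with edgeR 4.0.16 in R 4.3.3 (TMM scaling, glmQLFit, glmQLFTest), on the 8 libraries of each comparison or the 16 fraction libraries for the difference of genotype effects, keeping genes that pass filterByExpr and a mean of 3 CPM. Benjamini-Hochberg adjustment ran over all genes kept. Transcript lengths and GC content came from GENCODE vM21. The procedure was tested on simulated data with a fixed spread for all genes and no split within a group. That test says nothing about groups that fall into pairs, as RNY1-/- ProteinFx did. Members are all 6 genes; from each pathway list up to 3 changed genes per comparison with the largest log2 change and at least 10 CPM are named, and for each member the 3 genes of highest Pearson correlation of log2 CPM. Fcrl1, Fcer1a, Ms4a2, Ly6g, Ccr3, Epx and Il5ra were named after their values were seen. The members and lists were chosen with earlier results of these data known. One gene of the activating signal list and one promoter motif are not reported here. The total counts set the precision of each value, least for Fcgrt. Alternatives were DESeq2 1.42.0, other scalings, filters, all 20 libraries in one fit, thinning to 2509747 counts, removal of length and GC trends, a replicate block, leaving out each library, and either pair of RNY1-/- ProteinFx libraries.

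Groups share replicate numbers, and no label states that these pair the libraries, so same-numbered libraries were compared. Deviations from the group mean of same-numbered libraries correlated above 0.1 in all 4 pairs for RNY1-/- EVFx with PBS (r from 0.169 to 0.49) and RNY1-/- ProteinFx with RNY1-/- EVFx (0.186 to 0.507), and not in the others. Yet RNY1-/- ProteinFx with PBS had a higher mean r (0.532, lowest 0.044) than these (0.271 and 0.334). The limit of 0.1 therefore does not establish which comparisons are paired.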

Additional observations from a re-analysis of the deposited data

Results flagged for a closer look

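For 3 members the difference in donor genotype effect between the fractions passed a test of the difference itself (edgeR's quasi-likelihood test, Benjamini-Hochberg adjustment over all genes). The RNY1-/- minus RNY1+/+ difference in ProteinFx exceeded that in EVFx by 1.84 on the log2 scale for Fcgrt (adjusted p = 0.0048) and by 0.47 for Fcgr3 (adjusted p = 0.021), and for Fcgr2b the value was -0.43 (adjusted p = 0.034). None of the 3 passed with RNY1-/- ProteinFx replicates 3 and 4 alone, where the values were 1.18, 0.40 and -0.29. Fcgrt cleared the minimum mean of 3 CPM for this test only through RNY1-/- ProteinFx (6.23 CPM), the group where it was high, so its call is no support for a difference. The Fcgr2b call was also lost with total counts and without any one of several libraries, as given above.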

How the results depend on the processing

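The number of members called changed stayed within 1.5 times the reported value in 6 of the 9 comparisons under every alternative run. Leaving out each library gave 4 to 5, 3 to 4, 4 to 5 and 4 to 4 members in the comparisons with PBS (RNY1+/+ EVFx, RNY1-/- EVFx, RNY1+/+ ProteinFx, RNY1-/- ProteinFx) and 5 to 5 in both comparisons of fractions. Between EVFx genotypes, where 1 was called, it was 2 when scaled by total counts or by Cltc, Rab14 and Arpc2 (3-gene scaling), with filterByExpr alone, no filter, or length and GC trends removed with the block, 3 with the replicate block, and 1 to 2 as libraries were left out; the cause was not tested. Between ProteinFx genotypes, where 1 was called, it was 0 with total counts, the 3-gene scaling, all 20 libraries, thinning or the replicate block, with 3 at an unadjusted p under 0.05 in each by edgeR and 1 called by DESeq2. It was 2 with length and GC trends removed, 4 and 3 with either pair of RNY1-/- ProteinFx libraries, and 0 to 3 as libraries were left out. For the difference of genotype effects, with 3 called, it was 1 after thinning, 0 with RNY1-/- ProteinFx replicates 3 and 4 alone, and 2 to 4 as libraries were left out.

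The values whose direction turned passed no test as reported or under the alternative that turned them, although Fcer1g against PBS with RNY1-/- EVFx and RNY1+/+ ProteinFx passed with length and GC trends removed, and between ProteinFx genotypes with replicates 3 and 4 alone. With total counts Fcgr4 was -0.16 with RNY1+/+ EVFx, and Fcer1g -0.0037 with RNY1-/- EVFx and -0.11 with RNY1+/+ ProteinFx (-0.0079 with the 3-gene scaling), against PBS on the log2 scale. With length and GC trends removed, alone and with the block, Fcer1g was 0.20 and 0.18 with RNY1-/- ProteinFx against PBS, and Fcgrt 0.24 and 0.25 between the RNY1+/+ fractions. With RNY1-/- ProteinFx replicates 1 and 2 alone Fcer1g was 0.17 against PBS and 0.12 between genotypes. The Fcgr4 difference of genotype effects was -0.0055 with DESeq2, -0.013 with the 3-gene scaling, -0.0052 after thinning, -0.0045 with the block, -0.030 and -0.036 with length and GC trends removed without and with it, and -0.19 with replicates 3 and 4 alone. Leaving out a library moved Fcgr4 between -0.14 and 0.17 (RNY1+/+ EVFx) and -0.330 and 0.028 (RNY1-/- EVFx) against PBS, Fcer1g between -0.087 and 0.134 (RNY1+/+ ProteinFx against PBS), Fcgr1 between -0.062 and 0.261 (EVFx genotypes) and the Fcgr4 difference of genotype effects between -0.18 and 0.17.

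In the comparisons where every same-numbered pair correlated above 0.1, the block changed the call of Fcer1g between the RNY1-/- fractions (log2 -0.43, adjusted p = 0.011) and no other. In the other comparisons the block also gave Fcgr1 with RNY1+/+ EVFx against PBS (0.45, adjusted p = 0.012) and, between EVFx genotypes, Fcgr4 (-0.20, adjusted p = 0.045) and Fcgr2b (0.18, adjusted p = 0.046). It took away Fcgr1 between ProteinFx genotypes (adjusted p = 0.1). Scaling by total counts moved the median log2 change of all genes against PBS from -0.03 to -0.208, -0.271 and -0.197 with RNY1+/+ EVFx, RNY1-/- EVFx and RNY1+/+ ProteinFx, and the share of higher genes among those changed from 48.8%, 47.4% and 46.9% to 32.3%, 29.8% and 32.7%. It moved that share from 39.5% to 58.7% between ProteinFx genotypes, from an even split to 72.2% between RNY1-/- fractions (38.7% with the 3-gene scaling) and from 50.9% to 73.5% for the difference of genotype effects, with medians of 0.11, 0.19 and 0.165. Fcgrt, with 7 to 213 counts, is the member whose depth limits its values most.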
